A study of Homo sapiens with 12 samples.

Results

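RNA of H1-dKO neural progenitor cells (NPCs) at passage 4 was compared with RNA of the same line at passage 2, with 2 samples per passage. The 4 samples were chosen by their labels, dKO-NPC-P4-1 and dKO-NPC-P4-2 against dKO-NPC-1 and dKO-NPC-2, among 12 samples that form 6 groups. H1 is an established human embryonic stem cell line. In H1-dKO cells, CRISPR/Cas9 targeting had deleted catalytic sites within the JmjC domains of JMJD3 (KDM6B) and UTX (KDM6A), so that all 4 samples carry both deletions. Both enzymes take methyl groups off H3K27me3, a histone mark of silenced genes that the PRC2 complex writes. The cells had passed through neural induction by dual inhibition of TGFb and BMP signalling, rosette-like cells had been picked, and these were grown as neural spheres in medium with bFGF and EGF. WT H1 NPCs at the same passages (2 samples each) are used below only to ask whether a change in dKO cells differed from that in WT cells. The sources used here do not say how many H1-dKO clones were sequenced. Nor do they say whether the 2 samples of a group came from separate cultures. A p-value therefore measures only the spread between samples of a group, which may be technical. That spread was estimated over all 12 samples in 6 groups, differentiated cells among them. By chi-square per degree of freedom, the 2 samples of differentiated dKO cells differed most (12.5). The value was 1.63 for the passage 2 and 2.13 for the passage 4 dKO samples. Passage 4 is named in the labels, while the earlier passage was read from the study's text. No label gives an extraction or sequencing run, so passage and batch cannot be told apart.

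NPCs line the neural tube as a proliferating epithelium and are held in that state by transcription factors such as SOX1, SOX2 and PAX6. Their position is set by secreted signals. Wnt and BMP proteins from the roof plate and the cortical hem, a signalling centre at the edge of the cortex, specify dorsal identities, and SHH from the floor plate and hypothalamus specifies ventral ones. In bulk RNA, fewer cells of a type and less RNA per cell cannot be told apart, and this holds for each level given below.

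Of the 58302 genes listed, 13454 had a mean of at least 20 raw counts over the 12 samples and were tested. Levels are CPM (counts scaled to a common library size after TMM normalization), and each gene is given as the pair of passage 2 samples followed by the pair of passage 4 samples. Total counts were 1337776 and 1438807 at passage 2 and 4112119 and 3922877 at passage 4, so that 3 counts correspond to 2.22 and 2.09 CPM in the earlier samples and to 0.692 and 0.725 CPM in the later ones. These floors, like the count ratios below, cover counting error only. Both targeted genes were still counted, and gene counts also hold reads from outside the deleted part. KDM6A had 39.2 and 38.3 CPM at passage 2 and 31.4 and 27.3 CPM at passage 4 (log2 fold change -0.40 ± 0.26, adjusted p = 0.303), and KDM6B had 152 and 157 CPM at passage 2 and 185 and 181 CPM at passage 4 (log2 fold change 0.25 ± 0.11, adjusted p = 0.142). Neither gene was called. KDM6B, with both passage 4 samples above both passage 2 samples, was under the p threshold before adjustment and did not reach the fold threshold. The gene totals do not check the deletion. Beyond the genes fixed by the naming rule given with the processing, the list members named below were picked after their values had been seen.

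The label of neural progenitors was compared with marker genes. SOX2 was at 379 and 359 CPM at passage 2 and 219 and 215 CPM at passage 4 and did not reach the fold threshold (log2 fold change -0.77 ± 0.11, adjusted p = 2.10e-04). PAX6 was at 206 and 175 CPM and then 219 and 209 CPM and was not called (0.17). SOX1 fell from 151 and 141 CPM to 49.2 and 44.9 CPM (log2 fold change -1.63 ± 0.12, adjusted p = 2.57e-07) and NES, an intermediate filament protein of progenitors, from 1756 and 1709.6 CPM to 693 and 725 CPM (log2 fold change -1.29 ± 0.09, adjusted p = 2.45e-07). HES5, a Notch target of many progenitors, was at 0 in all 4 samples, as were the pluripotency factors POU5F1 and NANOG. Some transcripts of other cell types were present at both passages. COL1A1, a fibrillar collagen of mesenchyme, was at 564 and 666 CPM at passage 2 and 504 and 518 CPM at passage 4, and COL3A1, another, rose from 34 and 41.1 CPM to 351 and 348 CPM (log2 fold change 3.22 ± 0.35, adjusted p = 3.39e-04). LUM, a small proteoglycan of connective tissue, fell from 59.2 and 60.6 CPM to 12.7 and 14.3 CPM. DCN, another mesenchyme marker, was at 0 CPM in both passage 2 samples and at 1.38 and 0.483 CPM at passage 4. The keratins KRT8 and KRT18 were at 261 and 273 CPM at passage 2 and 317 and 299.6 CPM at passage 4 and at 93.9 and 144 CPM at passage 2 and 163 and 163 CPM at passage 4. The epithelial markers EPCAM and CDH1 were low at passage 2, at 3.70 and 2.09 CPM and at 1.48 and 0.697 CPM, and are taken up below. The part of cells of other types in any change below was not tested.

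With a more than 2-fold change and p below 0.05 before adjustment, 620 genes were higher at passage 4 (4.61% of those tested) and 702 were lower (5.22%). These are the shares to set beside each count of list members below. A positive log2 fold change was found for 6799 of the 13454 genes. With a Benjamini-Hochberg adjusted p below 0.05 the numbers were 486 (3.61%) and 588 (4.37%). The share of higher genes among all called was 46.9%, and it fell to 36.7% once counts were corrected for GC content and gene length and stood at 54.7% when TMM scaling was left out. Median GC content was 52.2% for the higher genes, 47.6% for the lower ones and 47.7% for all. The median log2 fold change of all genes tested was 0.01, with an interquartile range of -0.31 to 0.33. Both passage 4 samples lay above both passage 2 samples in 32.3% of all genes and below them in 32.1%, and this held for 620 of the 620 higher and 698 of the 702 lower genes. Within a passage the samples were closer to each other than across passages, with a root mean square log2 distance of 0.447 between the passage 2 samples, 0.266 between the passage 4 samples and 0.688 to 0.723 between passages.

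WT NPCs changed over the same passages in 1386 genes upward (10.3%) and 1277 downward (9.49%). Their total counts were 756942 and 1328252 at passage 2 and 3174410 and 4220037 at passage 4. The WT and dKO changes share no samples, and the difference between them was tested in the same fit, where it was positive for 1308 genes (9.72%, dKO change above WT change) and negative for 1287 (9.57%). Of the 620 genes higher in dKO cells, 174 were also higher in WT cells, 71 were lower and 375 were not called. For the 702 lower genes, 259 were also lower in WT cells, 115 were higher and 328 were not called. The positive share of the called differences was 50.4%, and it was 33.3% with the GC and length correction and 63.2% without TMM scaling. The difference was called positive for 255 of the higher genes and negative for 314 of the lower ones, and it was not called for 354 and 327. Across genes, which are not independent replicates, Pearson's r between the log2 fold changes of the 2 genotypes was 0.27 and Spearman's rho 0.20.

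**Figure D1:**
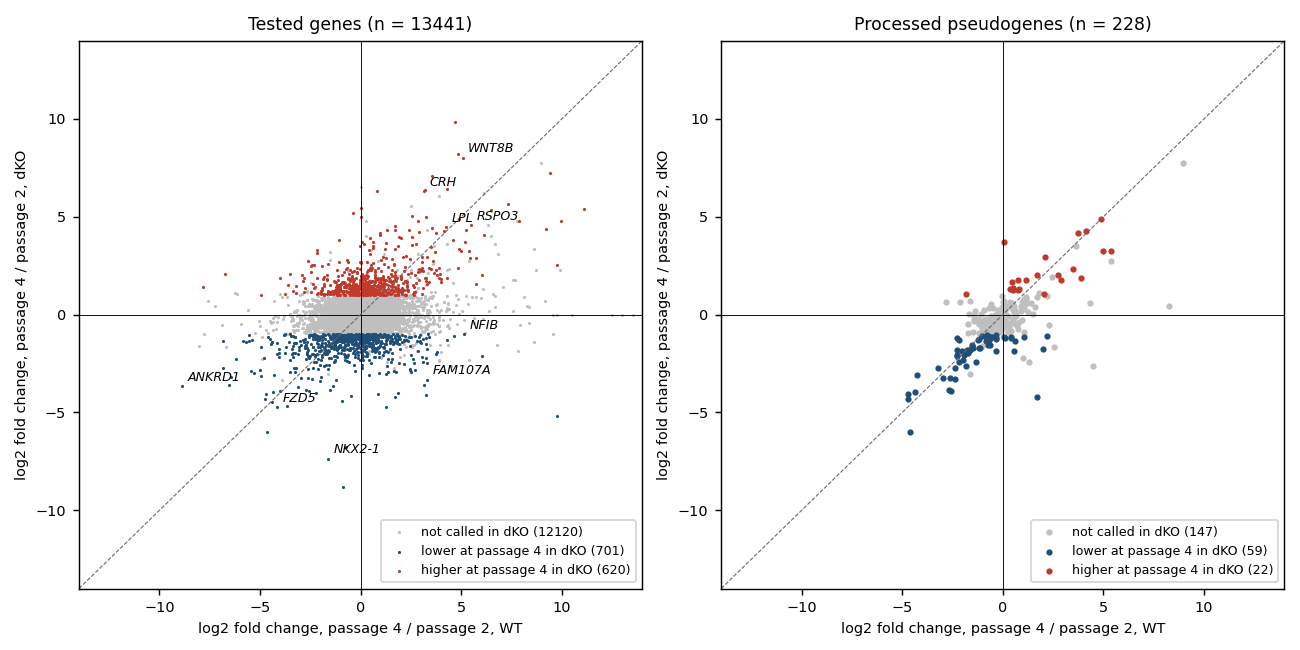
Each point is a gene, placed by its log2 fold change from passage 2 to passage 4 in WT NPCs (horizontal axis) and in dKO NPCs (vertical axis), with genes called higher in dKO in red, lower in dark blue and others in grey; the dashed line marks equal changes. The left panel holds 13441 of the 13454 tested genes (13 genes of X inactivation or the Y chromosome are not plotted) and the right panel the 228 processed pseudogenes. Called genes of either colour spread widely along the WT axis, and ANKRD1 and FZD5 lie low on both axes while FAM107A and NFIB lie low only on the dKO axis. Points far from 0 include genes with a group at 0, whose fitted values depend on the prior count.

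The 12 highest rises included secreted signals and transcription factors. RSPO2, a secreted protein that strengthens Wnt signalling, had no counts at passage 2 and 25.2 and 31.2 CPM at passage 4, at least 26.1-fold higher against the floor of 3 counts over the group. WNT8B, a Wnt ligand of the cortical hem at chr10:100463009-100483744, rose from 0.740 and 0 CPM to 97.8 and 104 CPM. The ratio was 295 (95% exact interval 52.8 to 11669.7; 1 against 854 counts). LMX1A, a homeodomain factor that makes the roof plate, rose from 0.740 and 0.697 CPM to 31.4 and 29.96 CPM, a ratio of 44.9 (95% exact interval 12.3 to 373; 2 against 260 counts). GDF7, a BMP family ligand of the roof plate, rose from 0 and 2.79 CPM to 52.8 and 52.7 CPM (log2 fold change 5.17 ± 0.92, adjusted p = 0.00501), and MSX1, a BMP-responsive homeodomain factor, from 0 and 2.79 CPM to 29.1 and 29.7 CPM (log2 fold change 4.33 ± 0.69, adjusted p = 7.59e-04). The naming rule admitted only genes whose groups did not overlap, so that separation was set in advance for these rises. RSPO3, the paralog of RSPO2, rose from 2.22 and 0.697 CPM to 33.9 and 35.5 CPM (log2 fold change 4.57 ± 0.49, adjusted p = 1.10e-05). GBX2, which positions the border between midbrain and hindbrain, rose from 2.22 and 2.09 CPM to 48.2 and 53.4 CPM (log2 fold change 4.54 ± 0.48, adjusted p = 1.29e-05).

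Among the other leading rises, OTX1, a homeodomain factor of the forebrain and midbrain, went from 1.48 and 0 CPM to 59.5 and 63.1 CPM, a ratio of 89.7 (95% exact interval 24.7 to 742; 2 against 519 counts). CRH, the corticotropin-releasing hormone, rose from 4.44 and 0 CPM to 178 and 167 CPM (log2 fold change 6.30 ± 0.40, adjusted p = 1.86e-07). LPL, the lipase that takes fatty acids from lipoproteins, rose from 6.66 and 6.27 CPM to 139.8 and 149 CPM (log2 fold change 4.48 ± 0.24, adjusted p = 1.61e-08). The secreted synaptic protein LGI1 rose from 2.22 and 0 CPM to 27.7 and 20.5 CPM, a ratio of 23.6 (95% exact interval 7.97 to 115; 3 against 205 counts), and the endosomal protein PLEKHF1 from 0.740 and 0.697 CPM to 23.5 and 24.2 CPM, a ratio of 34.9 (95% exact interval 9.54 to 290.2; 2 against 202 counts). Non-overlap of the groups was a condition of the rule for these genes as well. In WT NPCs, LPL went from 5.14 and 5.87 CPM to 101 and 113 CPM, RSPO3 from 1.29 and 0.734 CPM to 44.1 and 42 CPM and CRH from 1.29 and 2.20 CPM to 16.8 and 16.4 CPM. For CRH the dKO change exceeded that in WT by 3.17 ± 1.25 (adjusted p = 0.0838), and for LPL the difference was 0.23 ± 0.50 (adjusted p = 0.810). For GDF7 and GBX2 it was 5.54 ± 2.16 (adjusted p = 0.103) and 2.82 ± 1.12 (adjusted p = 0.0822). CRH, GDF7 and GBX2 passed the threshold for the difference before adjustment only.

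**Figure D2:**
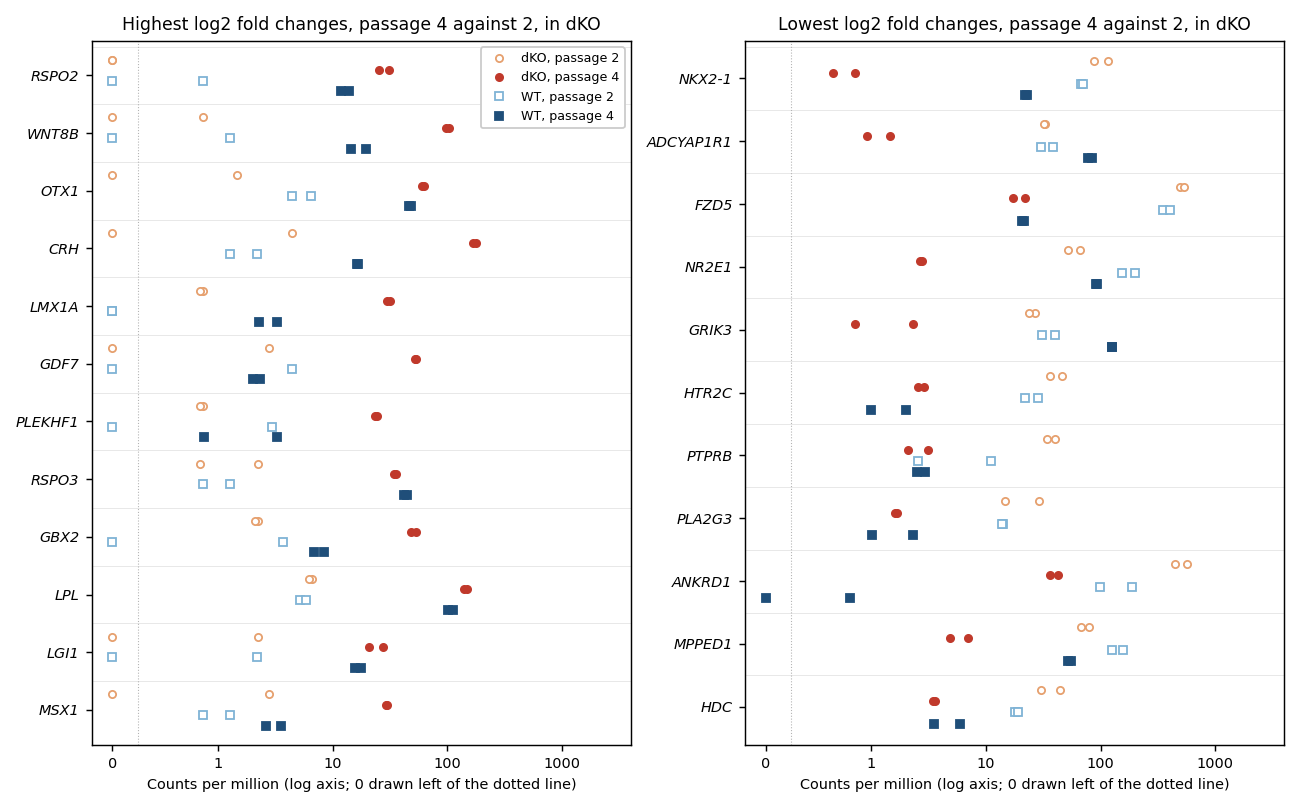
CPM of the 12 genes with the highest (left) and 11 of the 12 with the lowest (right) log2 fold changes in dKO NPCs, on a log axis with values of 0 drawn left of the dotted line. Circles are dKO samples and squares WT samples, open at passage 2 and filled at passage 4, with 2 samples per group. The filled circles are separated from the open ones in every gene shown because the naming rule admitted only such genes.

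The list of genes of the dorsal neural tube and neural crest had 10 of 17 tested members higher and 0 lower, against 4.61% and 5.22% of all genes, and 8 of the 10 also passed the adjusted threshold. Its median log2 fold change was 2.97 in dKO and 0.58 in WT NPCs, beside 0.01 for all genes in dKO. Members such as LMX1A and PAX3, with 2 counts each over both passage 2 samples, reached the count minimum through groups where they were high. Among the 5 members with at least 10 counts in every sample 2 were higher and the median was 0.51, while DESeq2 gave 1.83 over the 17. TFAP2B and TFAP2C had no counts at passage 2, and with both set at their bounds the median was 1.73. The roof-plate and dorsal progenitor factors were LMX1A, MSX1 and GDF7, described above, with MSX2 (3.70 and 9.06 CPM to 87.2 and 84.1 CPM), LMX1B (1.48 and 1.39 CPM to 18.5 and 25.6 CPM) and the paired-box factor PAX7 (6.66 and 8.36 CPM to 59.3 and 59 CPM). Of the ZIC zinc finger factors, ZIC2 rose from 118 and 132 CPM to 419.8 and 411 CPM (log2 fold change 1.73 ± 0.13, adjusted p = 2.50e-07) and ZIC5 from 37 and 59.2 CPM to 123 and 126 CPM, while ZIC1 and ZIC4 had log2 fold changes of 0.49 and 0.43 and were not called. PAX3, which marks dorsal progenitors and neural crest, went from 0 and 1.39 CPM to 31.6 and 32.6 CPM, a ratio of 47 (95% exact interval 12.9 to 390.03; 2 against 272 counts). Its call was lost when any 1 of the 4 samples was left out. PAX3 passed the unadjusted threshold and not the adjusted one (adjusted p = 0.144).

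Factors more particular to migrating neural crest were low, were not called or missed the adjusted threshold. TFAP2C had no counts at passage 2 and 7.38 and 10.9 CPM at passage 4, at least 8.44-fold higher (adjusted p = 0.0529). TFAP2A was at 2.96 and 0 CPM at passage 2 and 2.54 and 1.69 CPM at passage 4, and SNAI2, a factor of cells leaving an epithelium, at 25.9 and 13.2 CPM at passage 2 and 22.4 and 21.3 CPM at passage 4, neither called. SOX10 and FOXD3 were at or below 0.74 CPM in all 4 samples. The dKO change was called above the WT change for LMX1B, ZIC2 and GDF7, and for MSX1 the difference was 2.62 ± 1.98 (adjusted p = 0.382). LMX1A had 0 CPM in both WT samples at passage 2 and 3.29 and 2.28 CPM at passage 4. In the WT passage 2 samples 3 counts correspond to 3.86 and 2.20 CPM, so those zeros set no level below the passage 4 values.

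Wnt ligands bind Frizzled receptors with LRP co-receptors, R-spondins keep those receptors on the membrane, and the pathway switches on its own inhibitors as targets. In the Wnt list 16 of 40 tested members were higher and 7 lower (4.61% and 5.22% of all genes), with a median log2 fold change of 0.50 against -0.47 in WT NPCs. The median was -0.22 among the 25 members with at least 10 counts in every sample, of which 4 were higher and 5 lower, so its sign depended on the filter. Among the ligands, WNT8B, WNT7B (19.2 and 29.3 CPM to 169 and 179 CPM), WNT2B (11.1 and 10.4 CPM to 35.3 and 33.6 CPM) and WNT4 (8.14 and 9.06 CPM to 25.4 and 23.4 CPM) rose. WNT7A, a close relative of WNT7B, fell from 19.97 and 6.27 CPM to 0.692 and 0.242 CPM (log2 fold change -4.69 ± 0.88, adjusted p = 0.00354). WNT5A and WNT5B had log2 fold changes of 0.19 and -0.46 and were not called. RSPO1, the remaining R-spondin tested, went from 18.5 and 23 CPM to 56.1 and 51.2 CPM (adjusted p = 0.0672).

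The receptors moved in both directions. FZD5, a Frizzled receptor of the eye field and hypothalamus at chr2:207762598-207769906, fell from 496 and 535 CPM to 17.3 and 21.7 CPM (log2 fold change -4.72 ± 0.40, adjusted p = 2.10e-04), and FZD8 fell from 219.7 and 189 CPM to 39 and 43.7 CPM (log2 fold change -2.30 ± 0.20, adjusted p = 5.75e-06). FZD7 rose from 58.4 and 41.1 CPM to 128 and 127 CPM, FZD6 from 36.2 and 31.3 CPM to 70.6 and 71.5 CPM and the alternative Wnt receptor ROR2 from 12.6 and 13.9 CPM to 34.2 and 33.1 CPM. FZD5 also fell in WT NPCs, from 347 and 399 CPM to 20.7 and 21.5 CPM, whereas FZD8 was not called there, and the 2 genotypes differed for FZD8 by -2.45 ± 0.27 (adjusted p = 2.97e-05). Among targets that restrain the pathway, ZNRF3 was not called (0.96). AXIN2, a scaffold of the beta-catenin destruction complex, rose from 22.9 and 18.8 CPM to 51 and 55.3 CPM (log2 fold change 1.35 ± 0.35, adjusted p = 0.0187), NKD1 from 8.14 and 4.18 CPM to 29.8 and 32.4 CPM (log2 fold change 2.34 ± 0.32, adjusted p = 1.13e-04) and the receptor-removing ligase RNF43 from 2.22 and 2.09 CPM to 6.92 and 9.42 CPM (log2 fold change 1.91 ± 0.48, adjusted p = 0.0106). LGR5, an R-spondin receptor and target, rose from 8.14 and 6.27 CPM to 20.5 and 23.2 CPM, while its relative LGR4 fell from 160.5 and 137 CPM to 54.9 and 58.5 CPM. Groups did not overlap in any of these target genes, which also held for each of the 620 genes called higher. Both passage 4 samples lay above both passage 2 samples in 32.3% of all genes. In WT NPCs the log2 fold changes of AXIN2, NKD1, RNF43 and LGR5 were -0.43, -0.04, -1.82 and -0.84, and each of the 4 differences from dKO was called. The transcription factors LEF1, TCF7 and TCF7L1 were not called, TCF7L2 fell from 123 and 124 CPM to 56.5 and 56.8 CPM, and SFRP1, a secreted Wnt antagonist, fell from 397 and 289.8 CPM to 78.9 and 77.3 CPM. WLS, which carries Wnt ligands to the cell surface and is outside the list, was looked up after the values had been seen and rose from 28.1 and 42.5 CPM to 430.1 and 411 CPM (log2 fold change 3.57 ± 0.31, adjusted p = 6.95e-05).

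In the list of BMP and TGFb signalling 7 of 32 members were higher and 3 lower (4.61% and 5.22% of all genes). The median of 0.08 took either sign depending on the setting. BAMBI, a decoy receptor induced by BMP and Wnt signals, rose from 3.70 and 2.79 CPM to 35.8 and 33.3 CPM (log2 fold change 3.41 ± 0.68, adjusted p = 0.00531). The ligands BMP7 and BMP2 rose from 69.5 and 76.6 CPM to 276 and 262 CPM and from 8.14 and 13.2 CPM to 34.2 and 43 CPM, and the targets ID2 and SMAD7 from 28.1 and 25.1 CPM to 63.2 and 63.5 CPM and from 14.1 and 16.7 CPM to 32.8 and 29.5 CPM. BMP4 was not called (-0.04). TGFB2 fell from 124 and 146 CPM to 30.2 and 32.1 CPM (log2 fold change -2.12 ± 0.26, adjusted p = 1.49e-04) and CHRDL1, a BMP antagonist, from 52.5 and 65.5 CPM to 15.7 and 15.9 CPM. Of 30 members of FGF and EGF signalling, 7 were higher and 3 lower (median 0.18). FGF18 and FGF17 rose, from 2.96 and 2.79 CPM to 17.5 and 17.6 CPM and from 4.44 and 6.97 CPM to 18.5 and 17.9 CPM, and so did the feedback inhibitors SPRY4 (64.3 and 75.9 CPM to 254 and 259 CPM), SPRY1 (99.1 and 121 CPM to 298 and 291 CPM) and DUSP6 (204 and 234 CPM to 504 and 491 CPM). FGF19 fell from 43.6 and 59.9 CPM to 9.0 and 6.76 CPM (log2 fold change -2.71 ± 0.38, adjusted p = 5.06e-04) and FGF13, which acts inside neurons, from 55.5 and 54.3 CPM to 19.4 and 22.5 CPM. The ligand FGF8 had 12.6 and 14.6 CPM at passage 2 and 9.0 and 5.56 CPM at passage 4 and was not called.

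The deepest falls included regulators of ventral forebrain. NKX2-1, the homeodomain factor of hypothalamus and ventral telencephalon at chr14:36516392-36521149, fell from 87.3 and 116 CPM to 0.462 and 0.725 CPM (log2 fold change -7.35 ± 0.36, adjusted p = 1.61e-08). The passage 4 values lie near the floor of 3 counts. SHH had 3.70 and 5.57 CPM at passage 2 and 0.231 and 0.242 CPM at passage 4, an 18.8-fold lower ratio with an exact interval of 4.26 to 172 on 13 against 2 counts. Its receptor and target PTCH1 fell from 99.1 and 78 CPM to 26.5 and 31.7 CPM. GAS1, BOC and CDON, co-receptors that bind SHH, rose from 34.8 and 38.3 CPM to 183 and 175 CPM, from 174 and 147 CPM to 368 and 352 CPM and from 123 and 131 CPM to 266 and 289 CPM. Of 12 hedgehog members 3 were higher and 3 lower (4.61% and 5.22% of all genes), and the effectors SMO, GLI2 and GLI3 were not called. For NKX2-1 the fall in WT NPCs was from 66.9 and 70.5 CPM to 23 and 21.8 CPM, and the dKO fall went beyond it by -5.73 ± 0.49 (adjusted p = 1.15e-06). The change of SHH was also called different, by -3.67.

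Of 23 tested forebrain and eye genes, 2 were higher and 9 lower, against 4.61% and 5.22% of all genes (median -0.65, and -0.63 in WT). NR2E1 (TLX), which keeps forebrain stem cells dividing, fell from 66.6 and 52.2 CPM to 2.77 and 2.66 CPM (log2 fold change -4.43 ± 0.24, adjusted p = 1.61e-08). The ganglionic eminence factors DLX2 and DLX5 fell from 16.3 and 4.18 CPM to 2.31 and 1.69 CPM and from 42.9 and 49.5 CPM to 16.6 and 15.7 CPM, and DLX1 went from 25.1 and 11.8 CPM to 3.0 and 4.11 CPM with an adjusted p of 0.118. Eye-field factors SIX3 and SIX6 fell, from 97.6 and 91.3 CPM to 47.8 and 38.4 CPM and from 10.4 and 18.8 CPM to 6.0 and 5.56 CPM. In WT NPCs both fell further, with log2 fold changes of -2.55 and -5.55, and the difference was called for each. EMX2, which patterns the medial cortex next to the hem, rose in dKO from 55.5 and 62.7 CPM to 169 and 161 CPM (log2 fold change 1.48 ± 0.19, adjusted p = 7.39e-05). It rose in WT NPCs too, from 52.7 and 42.6 CPM to 134 and 146 CPM, and the difference was -0.10 ± 0.29 (adjusted p = 0.839). LHX2 did not change enough to be called in dKO (-0.30). More caudal factors were mixed, with 2 of 6 midbrain and hindbrain genes higher and 1 lower. IRX2 rose from 14.1 and 11.8 CPM to 57.9 and 49 CPM (log2 fold change 2.05 ± 0.22, adjusted p = 1.09e-05) whereas in WT it went from 14.1 and 16.2 CPM to 1.65 and 2.28 CPM, a difference of 4.97 ± 0.42 (adjusted p = 7.28e-07). No HOX gene reached the count minimum.

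Several receptors and enzymes were among the 12 lowest log2 fold changes. The receptors ADCYAP1R1, for the peptide PACAP, and HTR2C, for serotonin, fell from 32.5 and 32 CPM to 0.923 and 1.45 CPM and from 36.2 and 46 CPM to 2.54 and 2.90 CPM, and GRIK3, a kainate receptor subunit, from 26.6 and 23.7 CPM to 2.31 and 0.725 CPM. For the 12 lowest, too, the naming rule required groups that did not overlap. HDC, which makes histamine, fell from 30.3 and 43.9 CPM to 3.46 and 3.62 CPM and the phosphatase PTPRB from 34 and 40.4 CPM to 2.08 and 3.14 CPM. MPPED1 fell from 79.9 and 67.6 CPM to 6.92 and 4.83 CPM, and PLA2G3, a secreted phospholipase, from 14.8 and 29.3 CPM to 1.62 and 1.69 CPM (adjusted p = 0.0438), a call that was lost without passage 2 sample 2. ADCYAP1R1 and GRIK3 went the other way in WT NPCs, from 38.6 and 30.1 CPM to 78.3 and 83.8 CPM and from 39.9 and 30.8 CPM to 126 and 126 CPM, and differed between genotypes by -6.01 ± 0.69 (adjusted p = 1.22e-04) and -5.88 ± 0.88 (adjusted p = 0.00215). HTR2C, PLA2G3, PTPRB and MPPED1 were called lower in WT NPCs too, with log2 fold changes of -4.02, -3.12, -1.52 and -1.37. HDC was not called there (-2.01). The difference was called for PTPRB (-2.31) and MPPED1 (-2.27), and not for HTR2C (0.11), PLA2G3 (-0.60) or HDC (-1.37).

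Most genes of cholesterol synthesis and uptake fell. Cells make sterols from acetyl-CoA through mevalonate and squalene, and when membranes lack cholesterol the factor SREBP2 (gene SREBF2) switches on the enzymes together. All 23 tested members had a negative log2 fold change, 16 were called lower and 0 higher (5.22% and 4.61% of all genes), and 10 passed the adjusted threshold. Their median was -1.31 in dKO and -0.02 in WT NPCs, and the dKO change was called below the WT change for 11 of 23. The summed level of the 23 genes was 4008 and 4241 CPM at passage 2 and 1569.7 and 1559 CPM at passage 4. In WT NPCs it was 3664 and 3747 CPM and then 3776 and 3740.3 CPM. Under the other settings tried the median stayed between -1.39 and -1.23.

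At the head of the pathway, ACAT2 fell from 156 and 164 CPM to 54.2 and 52.4 CPM (log2 fold change -1.59 ± 0.37, adjusted p = 0.0231) and HMGCS1 went from 782 and 805 CPM to 196 and 226 CPM (log2 fold change -1.91 ± 0.57, adjusted p = 0.0655). In the middle steps MVK, MVD, IDI1 and FDPS were called lower, with log2 fold changes from -1.56 to -1.03, as were FDFT1 and SQLE, which make squalene and its epoxide. The late enzyme DHCR7 fell from 118 and 129.6 CPM to 45.2 and 41.6 CPM (log2 fold change -1.51 ± 0.21, adjusted p = 2.56e-04). The lanosterol steps LSS, CYP51A1 and MSMO1 were called lower, at -1.36, -1.23 and -1.31. INSIG1, the sensor that holds SREBP in the endoplasmic reticulum and is itself a target, went from 99.1 and 100.3 CPM to 23.5 and 28.8 CPM, with an adjusted p of 0.0702 and a call that was lost without passage 4 sample 1. SREBF2 was at 488 and 482 CPM at passage 2 and 258 and 246 CPM at passage 4 and did not reach the fold threshold (-0.94). PMVK, NSDHL, HSD17B7, EBP, SC5D and STARD4 were not called either, with log2 fold changes from -1.20 to -0.27.

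**Figure D3:**
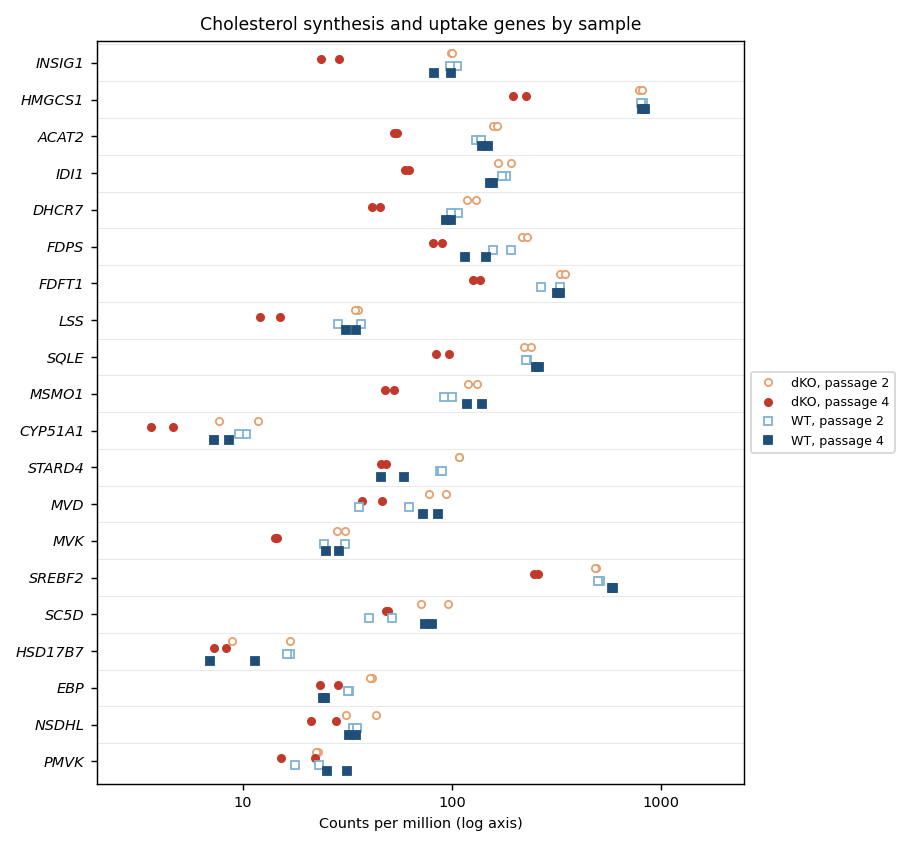
CPM of 20 of the 23 tested genes of cholesterol synthesis and uptake in each sample, on a log axis, ordered by log2 fold change in dKO NPCs. Filled circles (dKO, passage 4) lie left of open circles (dKO, passage 2) in most genes, while the WT squares of both passages lie close together in most.

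Promoters of these genes are shown because the members moved together. RefSeq windows of 300 bases (250 before to 50 after the start, GRCh38.p14) were found for 17 of the 23 genes, 22 windows in all. The letters CCAAT, the core bound by the factor NF-Y, were searched on both strands, where the reverse strand reads ATTGG. They occurred in 17 of 22 windows (77.3%), against 34.6% of all 35116 windows, 34.5% of windows of tested genes, 34.8% of windows of lower genes and 30.5% of windows of higher genes. At least 2 matches were found in 12 of 22 windows (54.5%) and in 10.8% of all. The sterol element TCACNCCAC was found on either strand in 1 of 22 windows (4.55%), that of SREBF2, and in 1.13% of all windows. A match describes letters in this window and was not tested as a binding site. Below, capitals mark CCAAT or ATTGG and, for SREBF2, also the sterol element, on the strand of the gene. HMGCS1 (chr5:43313363-43313662, minus strand) holds 2 CCAAT matches, while its second window holds 0, INSIG1 (chr7:155297628-155297927, plus strand) 1, FDPS (chr1:155308616-155308915, plus strand) 3 and SREBF2 (chr22:41832855-41833154, plus strand) 1.
HMGCS1: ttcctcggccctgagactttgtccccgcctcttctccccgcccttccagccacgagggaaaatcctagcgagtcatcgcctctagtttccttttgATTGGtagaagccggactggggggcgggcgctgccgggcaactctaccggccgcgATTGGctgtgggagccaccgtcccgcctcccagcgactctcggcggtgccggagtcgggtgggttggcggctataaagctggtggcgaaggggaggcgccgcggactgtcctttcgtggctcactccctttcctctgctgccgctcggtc
INSIG1: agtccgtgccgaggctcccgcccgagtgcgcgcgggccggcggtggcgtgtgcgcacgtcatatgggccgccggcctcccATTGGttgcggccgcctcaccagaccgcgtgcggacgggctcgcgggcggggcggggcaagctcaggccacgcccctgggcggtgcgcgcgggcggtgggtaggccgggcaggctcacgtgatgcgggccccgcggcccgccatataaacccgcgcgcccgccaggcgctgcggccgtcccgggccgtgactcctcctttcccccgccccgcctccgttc
FDPS: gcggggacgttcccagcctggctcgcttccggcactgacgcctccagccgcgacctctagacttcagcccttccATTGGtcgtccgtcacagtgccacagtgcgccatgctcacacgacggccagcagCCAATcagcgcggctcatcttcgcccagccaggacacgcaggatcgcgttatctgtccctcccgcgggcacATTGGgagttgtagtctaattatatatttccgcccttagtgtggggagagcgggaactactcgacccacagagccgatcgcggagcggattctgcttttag
SREBF2: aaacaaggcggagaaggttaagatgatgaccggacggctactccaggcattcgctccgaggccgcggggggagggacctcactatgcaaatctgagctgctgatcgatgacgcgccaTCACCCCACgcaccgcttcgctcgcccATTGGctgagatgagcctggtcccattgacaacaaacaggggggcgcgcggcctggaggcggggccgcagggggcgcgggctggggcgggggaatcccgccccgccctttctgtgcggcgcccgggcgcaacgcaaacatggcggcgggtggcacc

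Lipid-related genes outside the list did not all follow it. APOE, which carries lipids between glia and neurons, rose from 61.4 and 63.4 CPM to 195 and 164 CPM (log2 fold change 1.52 ± 0.29, adjusted p = 0.00486), and the rise of LPL is given above. ER and heat shock chaperones, of which 20 were tested, had 0 higher and 0 lower members and a median of -0.10.

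Among 35 genes of glycolysis and the hypoxia response, 31 had a negative log2 fold change, and 7 were lower and 1 higher (5.22% and 4.61% of all genes). The median was -0.49 (0.02 in WT NPCs). LDHA, which turns pyruvate into lactate, fell from 122 and 126 CPM to 44.5 and 45.4 CPM (log2 fold change -1.46 ± 0.22, adjusted p = 4.98e-04) while in WT it went from 51.4 and 74.9 CPM to 126 and 133 CPM, a difference of -2.45 ± 0.32 (adjusted p = 1.22e-04). HK2, the inducible hexokinase, fell from 60.6 and 67.6 CPM to 27.9 and 21.5 CPM, the kinase PDK1, which keeps pyruvate out of mitochondria, from 38.5 and 36.2 CPM to 13.8 and 15 CPM, and the mitophagy receptor BNIP3 from 75.4 and 72.5 CPM to 33 and 29.96 CPM. VEGFA, the vascular growth factor, fell from 108 and 99.6 CPM to 53.3 and 49.5 CPM. NDRG1 rose from 10.4 and 6.97 CPM to 27.2 and 28.8 CPM (log2 fold change 1.70 ± 0.25, adjusted p = 1.68e-04) and had risen in WT as well. Of the protein-coding genes of the mitochondrial genome, 13 of 13 had a positive log2 fold change, with 5 called higher and a median of 0.84 (0.97 in WT). MT-CO1 rose from 2794 and 3424 CPM to 7759.5 and 7043 CPM (log2 fold change 1.25 ± 0.21, adjusted p = 0.00243). All counts on the mitochondrial chromosome made up 1.66% and 1.73% of the total at passage 2 and 3.70% and 3.73% at passage 4, beside 1.79% and 1.77% and then 3.74% and 4.37% in WT, and the part of this share in other changes was not tested. Nuclear genes of oxidative phosphorylation had 0 of 53 members called in either direction (median 0.17).

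The factor p53 halts or kills damaged cells through its target genes. Of 24 targets tested, 23 had a positive log2 fold change, beside 6799 of all 13454 genes, and 5 were higher and 0 lower. The median was 0.61 (-0.41 in WT), and the dKO change was called above the WT change for 13 (9.72% of all genes). FAS, a death receptor, rose from 8.14 and 10.4 CPM to 28.4 and 24.9 CPM (log2 fold change 1.51 ± 0.32, adjusted p = 0.00326) and GADD45A, which blocks the cycle after DNA damage, from 39.2 and 42.5 CPM to 100.4 and 96.9 CPM (log2 fold change 1.27 ± 0.20, adjusted p = 3.52e-04). FDXR rose from 15.5 and 27.9 CPM to 47.3 and 53.9 CPM and SESN2, a stress-induced brake on mTORC1, from 19.97 and 32 CPM to 56.3 and 54.4 CPM (adjusted p = 0.00155). CDKN1A (p21), which inhibits cyclin-dependent kinases, went from 103 and 124 CPM to 247 and 219.6 CPM (log2 fold change 1.04 ± 0.13, adjusted p = 3.98e-05). The CDKN1A value fell under the fold threshold with the GC and length correction (0.77), without passage 2 sample 1 (0.91) and without passage 4 sample 1 (0.95). Calls among the 24 dropped to 2 with that correction and to 3 without passage 2 sample 1. MDM2, BAX and BBC3 (PUMA) had log2 fold changes of 0.57, 0.75 and 0.65 and were not called. Apoptosis genes as a list had 2 of 35 higher and 1 lower (median 0.05), shares close to the 4.61% and 5.22% of all genes. The called members were BMF, a BH3-only killer protein (66.6 and 62.7 CPM to 142 and 139 CPM), FAS, and CFLAR, an inhibitor of death receptor signalling (19.97 and 30.7 CPM to 10.2 and 13.3 CPM).

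Cell cycle genes had negative log2 fold changes, few of them past the fold threshold. In the G2 and M phase list 55 of 56 members were negative, with 4 lower and 0 higher (5.22% and 4.61% of all genes) and a median of -0.69 (-0.40 in WT). In the S phase list 45 of 47 were negative, with 5 lower, 0 higher and a median of -0.49 (-0.61 in WT). E2F8, a repressor of S phase genes, fell from 20.7 and 13.2 CPM to 3.0 and 2.66 CPM (log2 fold change -2.56 ± 0.34, adjusted p = 9.03e-05) and WDR76 from 22.2 and 27.2 CPM to 7.38 and 7.01 CPM (log2 fold change -1.78 ± 0.28, adjusted p = 3.86e-04), and both differed from WT, by -2.25 ± 0.47 (adjusted p = 0.00253) and -1.57 ± 0.38 (adjusted p = 0.00730). The S phase list members MCM6 and GMNN fell from 152 and 141 CPM to 59.8 and 74.7 CPM and from 51.8 and 59.2 CPM to 29.1 and 25.1 CPM. CENPE, a kinetochore motor, fell from 148 and 130.3 CPM to 56.1 and 69.3 CPM (log2 fold change -1.15 ± 0.17, adjusted p = 1.80e-04) and AURKB, a mitotic kinase, from 81.4 and 71.8 CPM to 41.1 and 29.5 CPM (adjusted p = 0.00105). MKI67, the usual proliferation marker, was at 509.6 and 477 CPM at passage 2 and 272 and 286 CPM at passage 4 and did not reach the fold threshold (-0.82 ± 0.14). Of 15 G1 regulators, CDK6 and E2F1 were lower, CDK6 from 314 and 339 CPM to 99.2 and 117 CPM and E2F1 from 60.6 and 62 CPM to 27.9 and 26.3 CPM, and none was higher. Among 13 CDK inhibitor and senescence genes 1 was higher, CDKN1A, and 4 were lower. The lower genes included CDKN2C (5.92 and 6.27 CPM to 2.77 and 1.93 CPM), the secreted IGFBP3 (110.2 and 122 CPM to 42.5 and 44.2 CPM) and CCL2 (28.8 and 39.7 CPM to 16.8 and 17.2 CPM, adjusted p = 0.134).

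The actin cytoskeleton and YAP target list had 22 of 23 members negative, with 7 lower and 0 higher (5.22% and 4.61% of all genes). Its median was -0.76 (-1.62 in WT). ANKRD1, a YAP target, fell from 441 and 563 CPM to 42.7 and 36.5 CPM (log2 fold change -3.66 ± 0.44, adjusted p = 0.00153) and TAGLN, an actin-binding protein of contractile cells, from 626 and 849 CPM to 202 and 181 CPM (log2 fold change -1.95 ± 0.34, adjusted p = 0.00664). The matricellular targets CCN1 and CCN2 fell from 339 and 353 CPM to 128 and 124 CPM and from 518 and 684 CPM to 188 and 191 CPM. WT NPCs fell further in ANKRD1 (99 and 189 CPM to 0.658 and 0 CPM) and TAGLN, and the difference between genotypes was 5.22 ± 1.49 (adjusted p = 0.0451) and 1.84 ± 0.56 (adjusted p = 0.0530). Of 19 immediate early genes 3 were lower and 0 higher (median -0.43, and -2.67 in WT). EGR1 fell from 421 and 288 CPM to 115 and 93.7 CPM (log2 fold change -1.76 ± 0.21, adjusted p = 2.15e-04), DUSP1 from 66.6 and 69 CPM to 33.5 and 31.4 CPM, and EGR2 went from 18.5 and 11.8 CPM to 3.0 and 3.38 CPM (adjusted p = 0.0831).

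Matrix genes split, with 9 of 38 higher and 3 lower (4.61% and 5.22% of all genes) and a median of -0.26. Among the 26 members with at least 10 counts in every sample 3 were higher and 2 lower. COL6A3 rose from 1.48 and 2.09 CPM to 31.6 and 29.96 CPM (log2 fold change 4.08 ± 0.40, adjusted p = 7.59e-06), and COL1A2, COL6A2, BGN and FBLN2 rose from 158 and 215 CPM to 795 and 791 CPM, 55.5 and 52.9 CPM to 183 and 169.8 CPM, 6.66 and 8.36 CPM to 28.6 and 32.1 CPM and 17 and 11.8 CPM to 75.9 and 64.3 CPM. With COL3A1 these are collagens, a proteoglycan (BGN) and a glycoprotein (FBLN2) of connective tissue, but COL1A1 was not called and LUM fell. TNC, a matrix protein of radial glia, fell from 413 and 529 CPM to 98.5 and 104 CPM (log2 fold change -2.22 ± 0.39, adjusted p = 0.00860). Of 9 epithelial genes 2 were higher and 0 lower (4.61% and 5.22% of all genes). The higher genes numbered 5 when only the compared groups were fitted and 1 with the GC and length correction. EPCAM rose from 3.70 and 2.09 CPM to 11.1 and 12.3 CPM (log2 fold change 2.01 ± 0.43, adjusted p = 0.00387) and KRT19 went from 13.3 and 14.6 CPM to 39 and 39.6 CPM (adjusted p = 0.0978). CDH1 had 1.48 and 0.697 CPM at passage 2 and 8.54 and 10.1 CPM at passage 4, a ratio of 9.10 (95% exact interval 3.0 to 45.1; 3 against 79 counts), and was not called. Interferon and antigen presentation genes had 5 of 13 higher and 0 lower (median 0.33, or 0.26 with IFIT2 at its bound), of which 4 passed the adjusted threshold. IFITM1 rose from 5.92 and 6.97 CPM to 87.9 and 69.8 CPM (log2 fold change 3.61 ± 0.37, adjusted p = 1.37e-05), IFITM2 from 29.6 and 34.8 CPM to 72.7 and 66.2 CPM and IFITM3 from 33.3 and 36.9 CPM to 85.6 and 82.1 CPM, while ISG15 was not called. IFIT2, called as well, stayed near the floor (adjusted p = 0.144, call lost under 9 of the other settings), with 0 CPM in both passage 2 samples and 0.462 and 1.21 CPM at passage 4.

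Neuronal genes moved apart between the genotypes. In dKO NPCs 1 of 30 was higher and 8 lower (4.61% and 5.22% of all genes), with a median of -0.31, and 5 of the 8 passed the adjusted threshold. Without passage 2 sample 1 the lower genes numbered 4 and the median was -0.17. The WT median was 1.98 with 26 higher (10.3% of all genes), and the dKO change was called below the WT change for 25 (9.57% of all genes). DCX, a microtubule protein of young neurons, fell in dKO from 194 and 162 CPM to 68.8 and 75.4 CPM (log2 fold change -1.30 ± 0.28, adjusted p = 0.0121), and ELAVL3 went from 71.7 and 55 CPM to 24.7 and 21 CPM (adjusted p = 0.0587). The proneural factor NEUROG1 went from 3.70 and 3.48 CPM to 0.692 and 1.21 CPM in dKO and from 0 and 2.94 CPM to 24.4 and 27.1 CPM in WT. STMN2, a growth cone protein, was at 254 and 251 CPM at passage 2 and 272 and 275 CPM at passage 4 and MAP2 at 419 and 379 CPM at passage 2 and 321 and 336 CPM at passage 4, neither called in dKO. TBR1, a factor of early cortical neurons, was the member that rose, from 4.44 and 2.79 CPM to 30.2 and 24.4 CPM (log2 fold change 2.92 ± 0.40, adjusted p = 1.06e-04), and in WT it went from 6.43 and 3.67 CPM to 242 and 264 CPM. Synapse and channel genes had 1 of 41 higher and 7 lower (median -0.16, and 1.55 in WT). GAD1, which makes GABA, rose from 3.70 and 3.48 CPM to 10.4 and 13 CPM (log2 fold change 1.70 ± 0.39, adjusted p = 0.00592), while GAD2 fell from 13.3 and 9.06 CPM to 3.23 and 3.62 CPM. KCNQ3, a potassium channel, fell from 32.5 and 23 CPM to 2.77 and 5.07 CPM (log2 fold change -2.82 ± 0.29, adjusted p = 6.75e-06).

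Radial glia and astrocyte genes had 3 of 23 higher and 6 lower in dKO NPCs (4.61% and 5.22% of all genes), with a median of -0.01. In WT the median was 3.27 with 18 higher (10.3% of all genes). The dKO change was called below the WT change for 15 (9.57% of all genes). The dKO median took either sign depending on the setting. FAM107A, a marker of outer radial glia, fell from 8.14 and 9.06 CPM to 0.462 and 1.21 CPM (log2 fold change -3.33 ± 0.46, adjusted p = 1.11e-04) and rose in WT from 16.7 and 14 CPM to 140.2 and 159 CPM. PTPRZ1, a receptor phosphatase of radial glia, fell from 935 and 725 CPM to 213 and 243 CPM, and CD44 from 28.1 and 34.1 CPM to 10.4 and 11.8 CPM. NFIB, a factor that turns progenitors toward glia, was at 33.3 and 33.4 CPM at passage 2 and 16.6 and 16.7 CPM at passage 4 (log2 fold change -1.002 ± 0.27, adjusted p = 0.0166). S100B had no counts at passage 2 and 4.38 and 4.83 CPM at passage 4, at least 4.28-fold higher. GFAP was at 3.70 and 6.97 CPM at passage 2 and 6.23 and 9.66 CPM at passage 4 and was not called, and AQP4 did not exceed the floor of 3 counts in any of the 4 dKO NPC samples. In the progenitor list 2 of 19 were higher and 4 lower (median -0.39). DACH1 and PLAGL1, both transcription factors, rose from 45.9 and 37.6 CPM to 113 and 127 CPM and from 37.7 and 32.7 CPM to 94.4 and 111 CPM, and SOX3 and HES1 fell with SOX1 and NES. PDGFRA, of oligodendrocyte precursors, was not called, and CSPG4 (NG2) went from 14.8 and 22.3 CPM to 36.9 and 39.6 CPM.

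Of the genes most active before neural commitment, LIN28A, an RNA-binding protein that blocks the let-7 microRNAs, fell from 85.8 and 78.7 CPM to 30.9 and 33.3 CPM (log2 fold change -1.35 ± 0.35, adjusted p = 0.0243). It was the 1 member called among 12 genes of the LIN28 and let-7 axis, with a median of -0.26 in dKO and -3.26 in WT NPCs and a dKO change called above the WT change for 11. LIN28B was at 131 and 109 CPM at passage 2 and 87.9 and 94.5 CPM at passage 4 and HMGA2 at 537 and 603 CPM at passage 2 and 632 and 696 CPM at passage 4, while in WT they went from 138 and 129.97 CPM to 5.92 and 7.08 CPM and from 388 and 387 CPM to 38.2 and 46.8 CPM. In the list with the PRC2 subunits and both deleted demethylases 1 of 12 was lower, PHF19, a PRC2 accessory protein, from 48.1 and 51.6 CPM to 22.8 and 19.6 CPM (log2 fold change -1.23 ± 0.17, adjusted p = 1.19e-04), and EZH2, the catalytic subunit, was at 167 and 164 CPM at passage 2 and 93 and 93 CPM at passage 4 without being called. PRC1 genes had 0 of 18 called (median -0.31), and the BAF remodelling genes 0 higher and 2 lower of 26, DPF1 from 12.6 and 20.2 CPM to 6.46 and 3.62 CPM and BCL11A from 13.3 and 18.8 CPM to 7.62 and 8.46 CPM. The BCL11A change (-1.003) lay at the fold threshold, and its call was lost under 6 of the other settings.

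Other signalling and guidance genes are given by their counts and leading members. Notch genes had 0 of 22 higher and 5 lower (median -0.33), with DLL3, a Notch ligand of newborn neurons, from 28.8 and 25.1 CPM to 9.46 and 7.49 CPM and DLK1 from 2368 and 2790.1 CPM to 860.3 and 799 CPM. Retinoic acid genes had 2 of 12 higher and 3 lower (4.61% and 5.22% of all genes). RDH10 and DHRS3, which make and remove retinal, rose from 13.3 and 9.06 CPM to 61.8 and 69.6 CPM and from 4.44 and 7.66 CPM to 24.7 and 24.2 CPM, and ALDH1A3, which makes retinoic acid, and CRABP1, which binds it, fell from 65.1 and 27.9 CPM to 7.15 and 4.59 CPM and from 151 and 132 CPM to 41.5 and 28 CPM. In the axon guidance list 5 of 42 were higher and 5 lower (4.61% and 5.22% of all genes). SLIT3, a repellent, rose from 14.8 and 19.5 CPM to 205 and 186 CPM (log2 fold change 3.50 ± 0.34, adjusted p = 4.58e-05) and PLXNA2 from 33.3 and 19.5 CPM to 123 and 122 CPM, while NTN1, the floor plate attractant, fell from 94.7 and 85 CPM to 14.5 and 11.8 CPM (log2 fold change -2.76 ± 0.16, adjusted p = 3.28e-08) and RGMA from 221 and 173 CPM to 55.6 and 58.5 CPM. Imprinted genes had 1 of 14 higher and 4 lower, beside the same shares of all genes, with NNAT from 559 and 618 CPM to 230.1 and 191 CPM. Serine, one-carbon and ATF4 target genes had 1 of 21 higher and 1 lower, close to the 4.61% and 5.22% of all genes, the latter SLC7A11, a cystine transporter, from 36.2 and 35.5 CPM to 13.8 and 13.5 CPM. For the 3 histone genes tested 2 were called, H2AC6 (5.92 and 1.39 CPM to 9.92 and 12.8 CPM) and H2BC5 (5.18 and 5.57 CPM to 9.0 and 12.8 CPM, adjusted p = 0.140, a call lost under 9 of the other settings). Of 4 pluripotency genes LIN28A was the 1 called, and of 3 mesoderm and endoderm genes none was.

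By gene type, 481 of 11817 protein-coding genes were higher (4.07%) and 569 lower (4.82%), and 88 and 49 of 1092 long non-coding RNAs. Processed pseudogenes, intronless copies of mRNAs, had 22 of 228 higher (9.65%) and 59 lower (25.9%). Those annotated as transcribed, a separate class, had 4 of 27 higher (14.8%) and 5 lower (18.5%), and transcribed unprocessed pseudogenes 11 of 109 higher (10.1%) and 6 lower (5.50%). Of the 228 processed pseudogenes, 27 were higher and 50 lower in WT NPCs, and 34 were lower and 12 higher in both genotypes. Reads of such copies can be shared with the parent gene, so their counts are uncertain. EEF1A1P19, chosen after the values had been seen, went from 46.6 and 167 CPM to 0.923 and 2.42 CPM in dKO NPCs, and GTF2IP1, chosen in the same way, from 103 and 88.5 CPM to 4.38 and 4.11 CPM in dKO and from 114 and 120.4 CPM to 6.25 and 4.81 CPM in WT. Among 74 ribosomal protein genes 2 were higher and 1 lower (median 0.01). RPL21 rose from 14.8 and 7.66 CPM to 166 and 127 CPM in dKO and from 9.0 and 2.94 CPM to 206 and 179.7 CPM in WT, and RPS26 from 6.66 and 3.48 CPM to 66.2 and 56.5 CPM in dKO, and both have many near-identical copies. RPL26 went from 53.2 and 82.2 CPM to 37.2 and 26.6 CPM. Medians by nuclear chromosome lay between -0.13 (chromosome 13) and 0.13 (chromosome 19), beside 0.74 for the 21 tested genes of the mitochondrial chromosome.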

How the data were processed

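RNA was isolated with TRIzol and made into libraries with a TruSeq kit, which does not mark strand, in 12 samples of 6 groups. Values are raw read counts per Ensembl gene, which the authors deposited without normalization; per the submitters' processing notes HISAT2 2.0.4, SAMtools 1.3.1, HTSeq 0.6.0 and DESeq 1.18.1 were used, and reads were placed on hg38. Symbols, positions, length and GC content came from GENCODE v44, which matched 57532 of 58302 gene IDs holding 99.8% of the counts. In R 4.3.3, 13454 genes (mean raw count 20 or higher) were scaled by TMM and fitted with the robust quasi-likelihood model of edgeR 4.0.16 over 6 group means. A call required a more than 2-fold change and p below 0.05 before adjustment, which are the cutoffs in the study's methods, and p-values were adjusted by Benjamini-Hochberg over all tested genes. The difference between the dKO and WT changes was a contrast of that fit. Values after ± are standard errors. Library totals over the 4 dKO samples ran from 1337776 to 4112119 counts. For genes with 0 counts in a group, a fold change is a bound against 3 counts over the group, and for 1 to 3 counts a ratio of summed counts with an exact 95% interval. With 2 samples per group, an exact permutation test cannot go below p = 0.333.

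Named genes are KDM6A and KDM6B; the 12 highest and 12 lowest log2 fold changes among protein-coding genes with adjusted p below 0.05, fold change above 2, no overlap of the groups and at least 20 CPM in the higher group; up to 2 called members at each end of a list, or its most abundant member where none was called; the 5 genes with the smallest p of the difference among genes called in dKO cells; and the cell type markers. The genes described and the lists were chosen with earlier results of these data known, and a list is given by its counts and median, without a test. Some genes that this rule names are not reported here. Alternatives were DESeq2 1.42.0, library totals without TMM, adjusted calls, a fit of the compared groups, other filters, thinning to the smallest total, a correction for GC content and length in 10 bins each, the replicate number as a block, that block with the correction, and leaving out each sample. The pipeline was tested on simulated data.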

Additional observations from a re-analysis of the deposited data

Results flagged for a closer look

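For 5 genes called in dKO NPCs, the change from passage 2 to passage 4 differed between dKO and WT cells by edgeR's test of the difference with the smallest p-values. They are ordered by the size of the difference (dKO change minus WT change, log2). FAM107A differed by -6.65 ± 0.52 (adjusted p = 3.98e-07), falling in both dKO samples and rising in WT NPCs. NFIB differed by -6.14 ± 0.40 (adjusted p = 1.75e-07), with a WT change of 5.14 and a dKO change of -1.002 that just reached the fold threshold and was not called under 8 of the other settings. KCNQ3 differed by -5.53 ± 0.35 (adjusted p = 5.57e-08). LIPG, an endothelial lipase, fell from 28.8 and 35.5 CPM to 5.08 and 6.52 CPM in dKO NPCs and went from 28.3 and 32.3 CPM to 108 and 121 CPM in WT, a difference of -4.37 ± 0.34 (adjusted p = 3.92e-07). CELF2, a splicing regulator of neurons, went from 189 and 178 CPM to 57.7 and 59.9 CPM in dKO and from 293 and 235 CPM to 541 and 637 CPM in WT, a difference of -2.81 ± 0.18 (adjusted p = 6.64e-08). In all 5 genes both passage 4 dKO samples lay below both passage 2 samples and both passage 4 WT samples above both passage 2 samples. The 5 genes were picked by the p-value of this difference, so the choice favoured such separation. In dKO cells 32.1% of all genes had both passage 4 samples below both passage 2 samples.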

How the results depend on the processing

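The filter on low counts moved the numbers most. Keeping any gene with 1 count or more gave 1302 higher and 1637 lower genes of 34982 tested. Requiring 10 counts or more in each of the 12 samples gave 163 higher and 425 lower of 9967, with 792 positive and 800 negative differences from WT. In that last setting 27.7% of called genes were higher. Of the genes called in the main fit, 154 of the 620 higher and 446 of the 702 lower ones passed this filter. The other settings kept each count within 1.5 times its main value. Leaving out 1 sample at a time gave 565 to 692 higher and 639 to 695 lower genes, 1143 to 1290 positive and 1188 to 1309 negative differences, where the lone sample of a group is assumed to vary like the other groups. After thinning to the smallest total, 440 of the 620 higher and 528 of the 702 lower genes were still called. Same-numbered dKO samples of both passages did not deviate together (r = 0.0029 across genes). Of the other 14 pairs of groups, passage 4 WT and dKO NPCs had r = 0.194 and the rest 0.0818 or less, so the numbers were not taken to pair the samples. Adding a replicate block gave counts of 629 and 703, and with the GC and length correction as well 37.0% of called genes were higher.

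Of 111 called genes that the rule names, 23 lost their call under at least 1 setting, 10 of them with adjusted calls, 8 with the GC and length correction, 11 after thinning and 20 without 1 sample, and 0 of 131 changed sign. List medians took either sign for BMP and TGFb, hedgehog, retinoic acid, midbrain and hindbrain, pluripotency, radial glia, senescence, ribosomal protein and chaperone genes, and also for Wnt (0.50 to -0.22) and histone genes (1.01 to -0.15). Depth limits the passage 2 values most, where 3 counts are over 2 CPM.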

Other observations

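The genes below are in no list and were chosen after their values had been seen. TPBG, a membrane protein that dampens Wnt signalling, rose from 23.7 and 36.2 CPM to 549 and 529.6 CPM (log2 fold change 4.16 ± 0.53, adjusted p = 0.00222), more than in WT NPCs by 3.22 ± 0.90 (adjusted p = 0.0429). CPT1A, which brings fatty acids into mitochondria, rose from 3.70 and 6.27 CPM to 75 and 78 CPM (log2 fold change 3.92 ± 0.88, adjusted p = 0.0210), LRAT, which stores retinol as an ester, from 4.44 and 2.79 CPM to 58.6 and 62.8 CPM (log2 fold change 4.07 ± 0.48, adjusted p = 6.00e-05), and DMRTA2, a factor of the medial cortex, from 1.48 and 1.39 CPM to 29.8 and 28.8 CPM (log2 fold change 4.32 ± 0.50, adjusted p = 2.39e-05). NRCAM, a neural adhesion molecule, fell from 223 and 253 CPM to 30.5 and 29.2 CPM (log2 fold change -2.99 ± 0.30, adjusted p = 1.75e-04) and EDNRB, an endothelin receptor, from 101 and 104 CPM to 9.0 and 10.9 CPM (log2 fold change -3.37 ± 0.61, adjusted p = 0.00953). The groups did not overlap in any of these genes, which the choice by their values favoured. Among all genes the passage 4 samples lay above both passage 2 samples in 32.3% and below them in 32.1%.

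Some long non-coding RNAs changed with the neighbouring coding gene. EMX2OS rose from 68.8 and 66.2 CPM to 258 and 229 CPM (log2 fold change 1.85 ± 0.40, adjusted p = 0.0182) beside EMX2, and ALDH1A3-AS1 fell from 42.2 and 16 CPM to 4.85 and 2.90 CPM (log2 fold change -2.88 ± 0.51, adjusted p = 0.00358) beside ALDH1A3. Because the library kit does not mark strand, reads of such a pair cannot be told apart. LINC01551 fell from 153 and 160.2 CPM to 40.2 and 35.3 CPM (log2 fold change -2.05 ± 0.18, adjusted p = 3.12e-06).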
